A study of Homo sapiens with 12 samples.

Results

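The ZXD genes are a small family of human zinc finger genes with 3 members followed here, ZXDC, ZXDA and ZXDB. On the Affymetrix HG-U133 Plus 2.0 array each gene is read by probe sets, groups of short probes whose signals are summarised into 1 value. Members were all probe sets that the array's annotation pairs with these symbols, including those it pairs with both ZXDA and ZXDB, and each probe set was kept apart. This gave 11 of the 54675 probe sets: 6 for ZXDC, 1 for ZXDA alone, 2 for ZXDB alone and 2 shared by ZXDA and ZXDB.

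Zinc finger proteins of this kind bind DNA or other proteins through repeated finger-shaped folds held by a zinc ion. ZXDC is known as a binding partner of CIITA, the master activator of the MHC class II genes, whose products present antigen on macrophages and other immune cells. ZXDA and ZXDB are near copies of each other on the X chromosome, and ZXDA is known to form a complex with ZXDC. ZXDC lies at chr3:126437601-126475891, ZXDA at chrX:57905430-57910458 and ZXDB at chrX:57592011-57597477 in RefSeq on GRCh38.p14. RefSeq lists 7 transcripts for ZXDC, 2 of them curated coding ones, and 1 each for ZXDA and ZXDB.

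All cultures were of U937, an established line from a human histiocytic lymphoma that resembles immature monocytes, and carried a TRIPZ Tet-On cassette and were kept in puromycin. The cassette makes an shRNAmir, a hairpin RNA against ZXDC1/2 (forms of ZXDC), when doxycycline is present. The 4 groups of 3 arrays were vehicle (0.1% DMSO) and PMA, each with and without doxycycline. Doxycycline was given at 0.5 µg/mL daily for 4 days, and 100 nM PMA or DMSO was added after the first 2 days, for 3 days, as the labels state it. PMA is a phorbol ester under which U937 takes on macrophage traits, and the study asked which genes ZXDC1 acts on during that change. The groups therefore share the cassette and the selection. No cells with a non-targeting hairpin, and none with doxycycline but no cassette, are analysed here, so the hairpin and doxycycline itself cannot be told apart.

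ZXDA and ZXDB are alike also in the sequence before their starts, which is shown here to set the 3 genes side by side. These windows lie before the transcripts and say nothing of what the array's probes read. The 250 bases before the RefSeq start of each gene (GRCh38.p14, written 5′ to 3′ on the gene's own strand) are chrX:57910459-57910708 on the minus strand for ZXDA and chrX:57591761-57592010 on the plus strand for ZXDB. Capitals mark bases that differ from, or have no partner in, the other gene.
ZXDA: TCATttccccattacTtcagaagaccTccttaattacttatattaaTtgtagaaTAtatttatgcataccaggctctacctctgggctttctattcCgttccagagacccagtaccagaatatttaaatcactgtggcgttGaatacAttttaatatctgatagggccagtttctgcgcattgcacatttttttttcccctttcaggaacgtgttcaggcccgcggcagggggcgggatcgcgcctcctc
ZXDB: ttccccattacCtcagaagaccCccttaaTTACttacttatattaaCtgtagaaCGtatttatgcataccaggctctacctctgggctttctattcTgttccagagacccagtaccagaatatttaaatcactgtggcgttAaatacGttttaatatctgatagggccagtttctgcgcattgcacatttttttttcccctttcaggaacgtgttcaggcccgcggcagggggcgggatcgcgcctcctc
The alignment held 238 identical bases in 254 columns (93.7%), with 8 mismatched and 8 unpaired, and the last 102 bases before the start were the same in both. Against the same window of ZXDC, the identity was 43.6% for ZXDA and 43.9% for ZXDB. G and C made up 44% of the ZXDA window, 45.6% of the ZXDB window and 81.6% of the ZXDC window, beside a median of 58% over 35116 RefSeq promoters. Of 6 short motifs searched on both strands, GGGCGG, the core of a GC box, was found 1 time in ZXDA, 1 time in ZXDB and 5 times in ZXDC, and 42.6% of all promoters hold it. No match in these windows was found for TATAAA (held by 10.7% of all promoters), for CCAAT (32%), for TGANTCA, the AP-1 site (6.57%), for TGACGTCA, the cAMP response element (1.65%), or for CACGTG, an E-box (6.34%).

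The arrays had medians between 5.16 and 5.22 (log2 RMA signal, the scale of every value below). Myeloid markers of the line were present, with 8 of 9 above the median probe set, among them LYZ and PTPRC. Of markers of other cell types, those above that median were 0 of 3 epithelial, 1 of 3 T cell (CD3E), 1 of 2 B cell (CD79A), 1 of 2 erythroid (HBB) and 2 of 3 fibroblast (COL1A1 and DCN). None of these lists had a member called for PMA without doxycycline, and the fibroblast mean was 5.82 to 6.07 over all arrays. The part of such cells or of background signal in these values was not tested. Macrophage markers followed PMA: the mean of 5 such genes was 5.58 to 5.94 on the vehicle arrays and 8.70 to 9.83 on the PMA arrays, both with and without doxycycline. The 4 arrays numbered 1, 1 in each group, stood apart in how far the 3′ end of the ACTB control read above its 5′ end, a sign of RNA quality, with a log2 difference of 1.99 to 2.72 on them and 0.71 to 1.64 on the other 8. The labels name the arrays of a group biological replicates 1 to 3, and nothing more is said of how the cultures were kept apart.

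Doxycycline was first read on ZXDC, the gene the hairpin targets. Mean signal of all 6 ZXDC probe sets was lower with doxycycline in both agents, by 0.25 to 0.63 on the log2 scale when averaged over the agents. The decrease was largest on 218639_s_at, which kept 64.7% of its signal, then on 225964_at, which kept 70.9%. A smaller decrease was read on 235448_at and 234991_at, which kept 83.8% and 81.6%. The other 2, 230209_at and 230106_at, had differences of -0.33 and -0.30 with arrays that disagreed. A large decrease in a part of the cells and a smaller decrease in all of them cannot be told apart in these bulk samples.

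On 225964_at the vehicle arrays read 8.01, 7.63 and 7.69 (replicates 1 to 3), and with doxycycline they read 7.16, 7.25 and 7.44. In PMA it read 7.96, 7.89 and 7.51 without doxycycline and 7.39, 7.43 and 7.02 with it. All 6 arrays with doxycycline lay below all 6 without it. That separation over the 12 arrays was seen for 0.033% of all probe sets in the lower direction, and for 1 of the 6 ZXDC probe sets. The averaged difference was -0.50 (SE 0.11).

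On 218639_s_at the vehicle arrays read 7.60, 7.40 and 7.68, and those with doxycycline 6.68, 7.22 and 7.13. In PMA the values were 7.0, 7.31 and 7.01 without and 6.05, 6.56 and 6.59 with doxycycline. The groups did not overlap within either agent, but the vehicle arrays with doxycycline overlapped the PMA arrays without it. The averaged difference was -0.63 (SE 0.12), with -0.55 (SE 0.17) in vehicle and -0.71 (SE 0.17) in PMA.

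The probe set 235448_at was the tightest, with SDs of 0.02 to 0.11 within groups of 3. It read 6.66, 6.51 and 6.73 in vehicle and 6.31, 6.34 and 6.36 in vehicle with doxycycline. In PMA it read 6.85, 6.78 and 6.77, and 6.57, 6.56 and 6.63 with doxycycline. The groups again did not overlap within either agent, with an averaged difference of -0.25 (SE 0.07). Groups apart in this direction in both agents were found for 3 of the 6 ZXDC probe sets (225964_at, 218639_s_at and 235448_at) and for 0.348% of all probe sets.

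On 234991_at the values were 7.55, 7.41 and 7.29 in vehicle and 7.22, 7.16 and 7.11 with doxycycline. In PMA they were 8.16, 7.61 and 7.41, and 7.39, 7.46 and 7.34 with doxycycline. Here the groups lay apart in vehicle only, and PMA replicate 1 stood well above the rest. The averaged difference was -0.29 (SE 0.11).

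The remaining ZXDC probe sets separated the groups less. 230209_at read 7.17, 6.83 and 6.82 in vehicle, 6.79, 6.22 and 6.30 with doxycycline, 7.79, 7.06 and 6.77 in PMA, and 7.11, 7.15 and 6.89 in PMA with doxycycline. 230106_at read 5.72, 5.89 and 5.43, then 5.12, 5.66 and 5.09, then 6.01, 5.70 and 5.18, and 5.33, 5.57 and 5.36 in the same order of groups. In PMA both overlapped: replicates 2 and 3 of 230209_at and replicate 3 of 230106_at were higher with doxycycline. Taken by agent, groups lay apart in the lower direction on 5 of 6 ZXDC probe sets in vehicle and on 3 of 6 in PMA, where 3.61% and 5.35% of all probe sets did so.

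**Figure D1:**
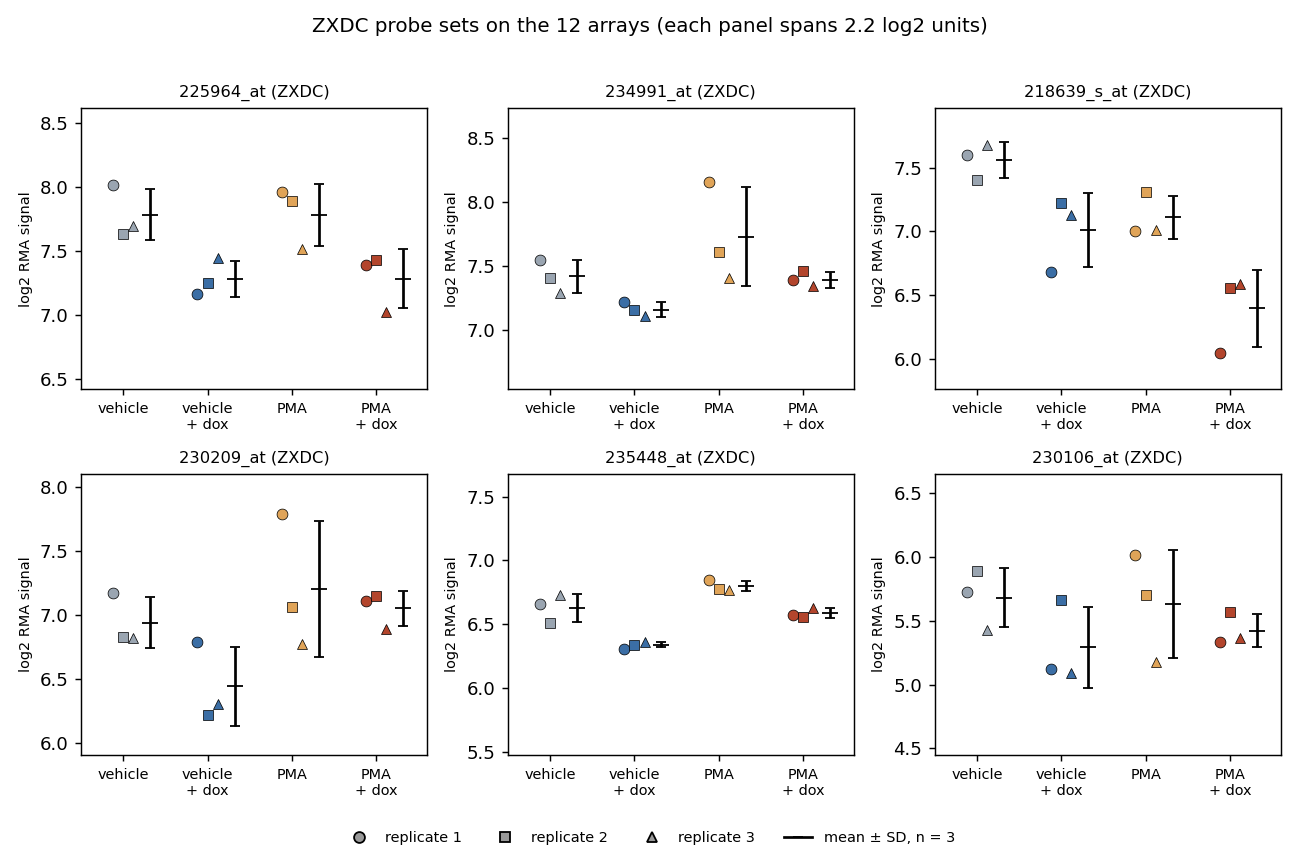
Log2 RMA signal (y axis) of the 6 ZXDC probe sets on each of the 12 arrays, by group (x axis), with symbols for the replicate number and bars for the mean ± SD (n = 3). Every panel spans the same number of log2 units, and on 225964_at the arrays with doxycycline, at 7.02 to 7.44, all lie below those without, at 7.51 to 8.01.

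No ZXDC probe set passed the test across the whole array. In limma's fit over 54613 non-control probe sets, 0 of 11 ZXD probe sets passed a Benjamini-Hochberg adjusted p of 0.05 for doxycycline averaged over the agents, as did 0% of all probe sets. Adjusted p was 0.541 for 218639_s_at, 0.639 for 225964_at, 0.75 for 235448_at, 0.809 for 234991_at and 0.855 for both 230209_at and 230106_at. At an unadjusted p under 0.05 the fit held 4 of the 6 ZXDC probe sets, 0 of the 5 others and 5.9% of all. By unadjusted p, 218639_s_at ranked 18, 225964_at ranked 45 and 235448_at ranked 184 of the 54613. In each agent alone 0% were called too, with 0 of 11 members. At an unadjusted p under 0.05 there were 3 members in PMA and 4 in vehicle, all for ZXDC, beside 5.93% and 2.84% of all probe sets.

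Exact permutation of doxycycline within each agent (two-sided, 400 relabelings of the arrays) gave p = 0.005, the smallest it can give, for 225964_at, 218639_s_at and 235448_at. The exact p was 0.01 for 234991_at, 0.135 for 230209_at and 0.105 for 230106_at. These are tests of single probe sets, not adjusted for the number tested. An exact p under 0.05 was reached in the lower direction by 4 of 6 ZXDC probe sets and by 2.81% of all probe sets. Probe sets of 1 gene read the same samples, though perhaps not the same forms of its RNA, and are not replicates of each other.

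Within pairs of arrays with 1 replicate number and agent, 4 of the 6 for ZXDC read lower with doxycycline in 6 of 6 pairs, as did 3.31% of all probe sets. The pair differences of 225964_at were -0.85, -0.38 and -0.25 in vehicle and -0.56, -0.46 and -0.49 in PMA. Those of 218639_s_at were -0.92, -0.18 and -0.55, and -0.95, -0.74 and -0.42. The pairs numbered 1 gave the larger mean difference on every ZXDC probe set, -0.32 to -0.93, against -0.13 to -0.47 for the pairs numbered 2 and 3. The arrays numbered 1 are those with the high ACTB control ratio, while their GAPDH control did not stand apart. Within pairs this ACTB log2 difference was higher with doxycycline, except in vehicle 2. In vehicle it read 1.99, 1.29 and 1.05 (replicates 1 to 3) without doxycycline and 2.40, 0.71 and 1.07 with it. In PMA it read 2.39, 1.12 and 1.01 without and 2.72, 1.32 and 1.64 with doxycycline. The part of the ACTB ratio in the result was not tested. With the arrays numbered 1 left out, the averaged difference was -0.39 for 225964_at, -0.47 for 218639_s_at, -0.22 for 235448_at and -0.16 for 234991_at. For the first 3 of these the exact permutation p was 0.0556, the smallest that 36 relabelings can give, and for 234991_at it was 0.111. With a replicate block for each of the 6 pairs, limma's adjusted p was 0.0907 for 225964_at and 0.086 for 218639_s_at, and no ZXD probe set was called. The exact test over the 64 sign patterns of the pairs gave p = 0.0312, its smallest, for the 4 probe sets that were lower in every pair.

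**Figure D2:**
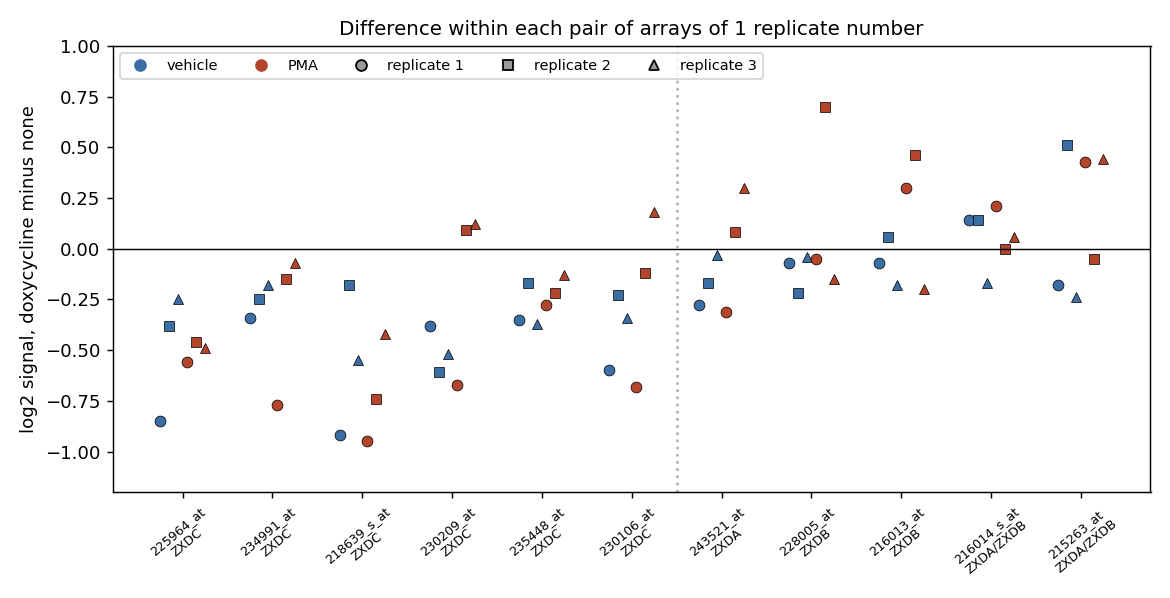
Difference in log2 signal with minus without doxycycline (y axis) within each pair of arrays of 1 replicate number, for the 11 ZXD probe sets (x axis), by agent (colour) and replicate number (symbol). ZXDC pairs reach from -0.95 to 0.18, and 4 of its 6 probe sets have every pair below 0, which none of the ZXDA and ZXDB probe sets has.

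For ZXDA and ZXDB no probe set read lower in all of the same pairs. Of 6 pairs, 5 were lower with doxycycline on 228005_at, 4 on 243521_at, 3 on 216013_at and on 215263_at, and 2 on 216014_s_at. On 228005_at the pair that was not lower, PMA 2, differed by 0.70, and the others by -0.22 to -0.04. The averaged doxycycline difference was -0.07 for 243521_at (ZXDA), 0.03 and 0.06 for 228005_at and 216013_at (ZXDB), and 0.06 and 0.15 for 216014_s_at and 215263_at (shared). Their 95% intervals in limma's fit were -0.31 to 0.18, -0.28 to 0.34, -0.17 to 0.30, -0.10 to 0.22 and -0.16 to 0.46. Exact permutation p was 0.23 to 0.90 for all 5. Within an agent 0 of the 5 had groups that lay apart with and without doxycycline, in either direction, as 10.2% of all probe sets did in PMA and 9.09% in vehicle.

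The difference between the genes was tested directly, as the doxycycline change of the ZXDC probe set 225964_at minus that of each ZXDA, ZXDB or shared probe set in the same arrays. The other ZXDC probe sets were not set against these. Their averaged differences were -0.63 (218639_s_at), -0.33 (230209_at), -0.30 (230106_at), -0.29 (234991_at) and -0.25 (235448_at). Only 228005_at (ZXDB) was as bright, at percentile 80.4 of all probe sets by mean signal beside 78.4 for 225964_at. The ZXDC probe set 225964_at moved further down than 228005_at by -0.53 (exact permutation p = 0.005, two-sided, 400 relabelings, not adjusted). Against 243521_at (percentile 53.9) the difference was -0.43 (exact p = 0.03), and against 216014_s_at (percentile 57.2) it was -0.56 (exact p = 0.005). The values against 216013_at and 215263_at were -0.56 and -0.65, but these lie at percentiles 27.1 and 33.4, where RMA compresses a decrease, and the difference from them is given with no test. The part of signal level in the other 3 differences was not tested. The exact p against ZXDA was above 0.05 when vehicle with doxycycline 1 (0.06), PMA 1 (0.075), PMA 2 (0.095) or vehicle 3 (0.06) was left out, and reached 0.05 without PMA with doxycycline 3. On the arrays numbered 2 and 3 alone the differences from 228005_at, 243521_at and 216014_s_at were -0.47, -0.44 and -0.40, with exact p of 0.0556, 0.111 and 0.0556, in a design whose smallest p is 0.0556.

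**Figure D3:**
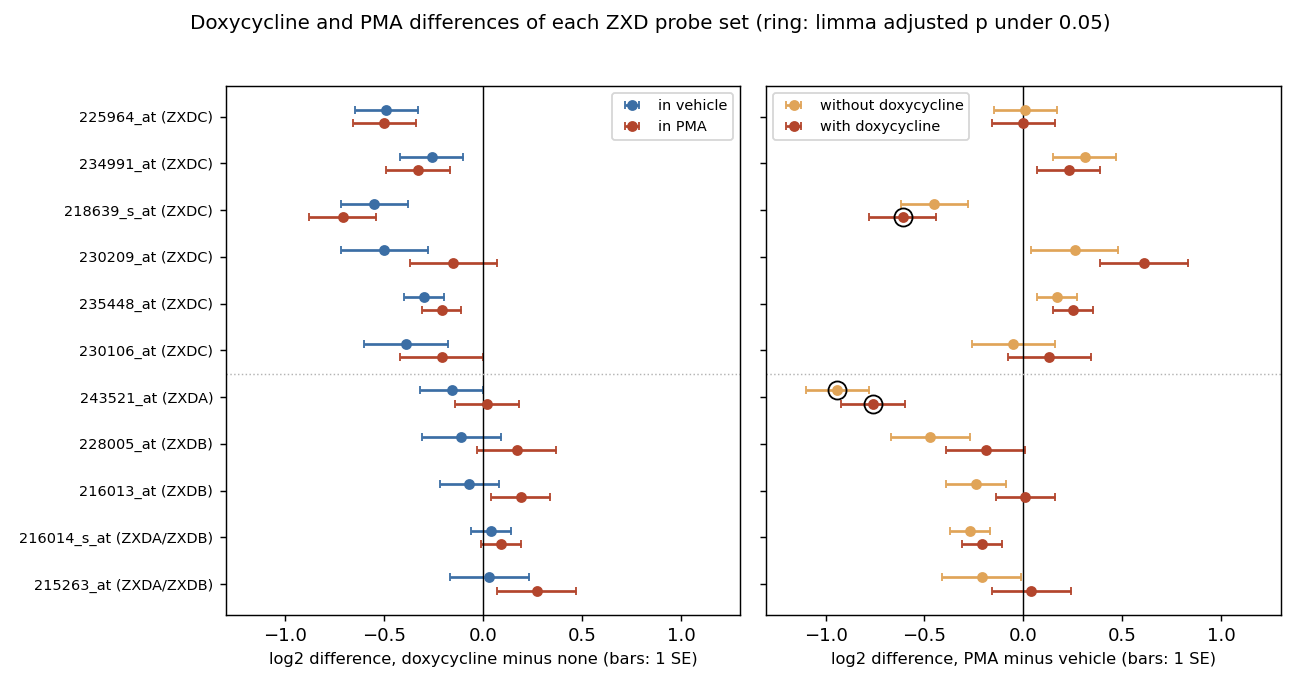
Log2 differences from limma's fit over all arrays (points, bars 1 SE) for the 11 ZXD probe sets, with doxycycline minus without on the left axis pair and PMA minus vehicle on the right, rings marking an adjusted p under 0.05. Doxycycline points lie left of 0 for the 6 ZXDC probe sets in both agents, and the PMA rings mark 243521_at at -0.94 and -0.76 and 218639_s_at at -0.61.

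The PMA differences of the 11 probe sets had no common direction. The ZXDA probe set fell with and without doxycycline, 1 ZXDC probe set and 1 shared probe set fell on average over both conditions, and 2 other ZXDC probe sets rose. The brightest ZXDC probe set had the same mean in PMA as in vehicle. In limma's fit 1 of 11 ZXD probe sets was called for PMA without doxycycline, where 23.6% of all probe sets were, and 2 of 11 for PMA with doxycycline, where 24.5% were. Averaged over doxycycline, 5 of 11 were called, 2 higher and 3 lower, beside 33.2% of all (15.1% higher and 18.1% lower). The counts in each doxycycline condition thus lie below the background share, and the averaged count, 3 of 11 lower and 2 of 11 higher, lies somewhat above it. With so few probe sets, nothing is read from these shares. The macrophage markers given above moved with PMA on the same arrays, and the part of that change of cell state in the ZXD values was not tested.

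ZXDA gave the widest PMA separation. On 243521_at the vehicle arrays read 6.25, 5.88 and 5.69, and 5.97, 5.72 and 5.65 with doxycycline. The PMA arrays read 5.09, 4.92 and 4.99, and 4.78, 5.0 and 5.29 with doxycycline. All 6 PMA arrays lay below all 6 vehicle arrays, as 12.4% of all probe sets did. The difference was -0.94 (SE 0.16, limma adjusted p = 0.000553) without and -0.76 (SE 0.16, adjusted p = 0.00272) with doxycycline. Averaged it was -0.85 (SE 0.11, adjusted p = 3.46e-05), which leaves 55.6% of the signal. The means in PMA, 5.0 without and 5.02 with doxycycline, lay below the array medians of 5.16 to 5.22. RMA compresses differences of dim probe sets, so this share of signal is not a share of ZXDA RNA.

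ZXDB read lower in PMA on average but not on every array. On 228005_at the values were 8.14, 7.95 and 7.89 in vehicle, 8.07, 7.73 and 7.85 with doxycycline, 7.94, 7.25 and 7.38 in PMA, and 7.89, 7.95 and 7.23 in PMA with doxycycline. PMA replicate 1, and replicates 1 and 2 of PMA with doxycycline, stayed within the range of the vehicle arrays. The averaged difference was -0.33 (SE 0.14), with a limma adjusted p of 0.101 and an exact permutation p of 0.11. The call turned on pairing and on 1 array: adjusted p was 0.0328 with the replicate block, 0.0404 on the arrays numbered 2 and 3 alone and 0.019 without PMA 1. Here and below, the replicate block ties each number across the agents too, where not every pair passed the pairing check. Whether ZXDA fell further than ZXDB was tested in the same arrays. The PMA difference of 243521_at minus that of 228005_at was -0.52, with an exact permutation p of 0.035, and leaving out any 1 of 8 of the 12 arrays brought p to between 0.055 and 0.09. On the arrays numbered 2 and 3 alone it was -0.28 (exact p = 0.278). Against the ZXDC probe set 225964_at, ZXDA fell further by -0.85 (exact p = 0.01, and at most 0.015 without any 1 array). On the arrays numbered 2 and 3 alone that difference was -0.64 (exact p = 0.111).

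The shared probe set 216014_s_at read 5.68, 5.66 and 5.88 in vehicle, 5.82, 5.81 and 5.71 with doxycycline, 5.47, 5.51 and 5.45 in PMA, and 5.67, 5.51 and 5.51 in PMA with doxycycline. Groups lay apart within each doxycycline condition. The averaged difference was -0.24 (SE 0.07, limma adjusted p = 0.02), and adjusted p was 0.0583 without vehicle 3. The other shared probe set, 215263_at, ran from 3.82 to 4.82 with overlapping groups and an averaged PMA difference of -0.09. The second ZXDB probe set, 216013_at, ran from 3.45 to 4.20 and differed by -0.12. Both had mean signals below the median of the array, and 216014_s_at cannot assign its change to ZXDA or ZXDB.

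**Figure D4:**
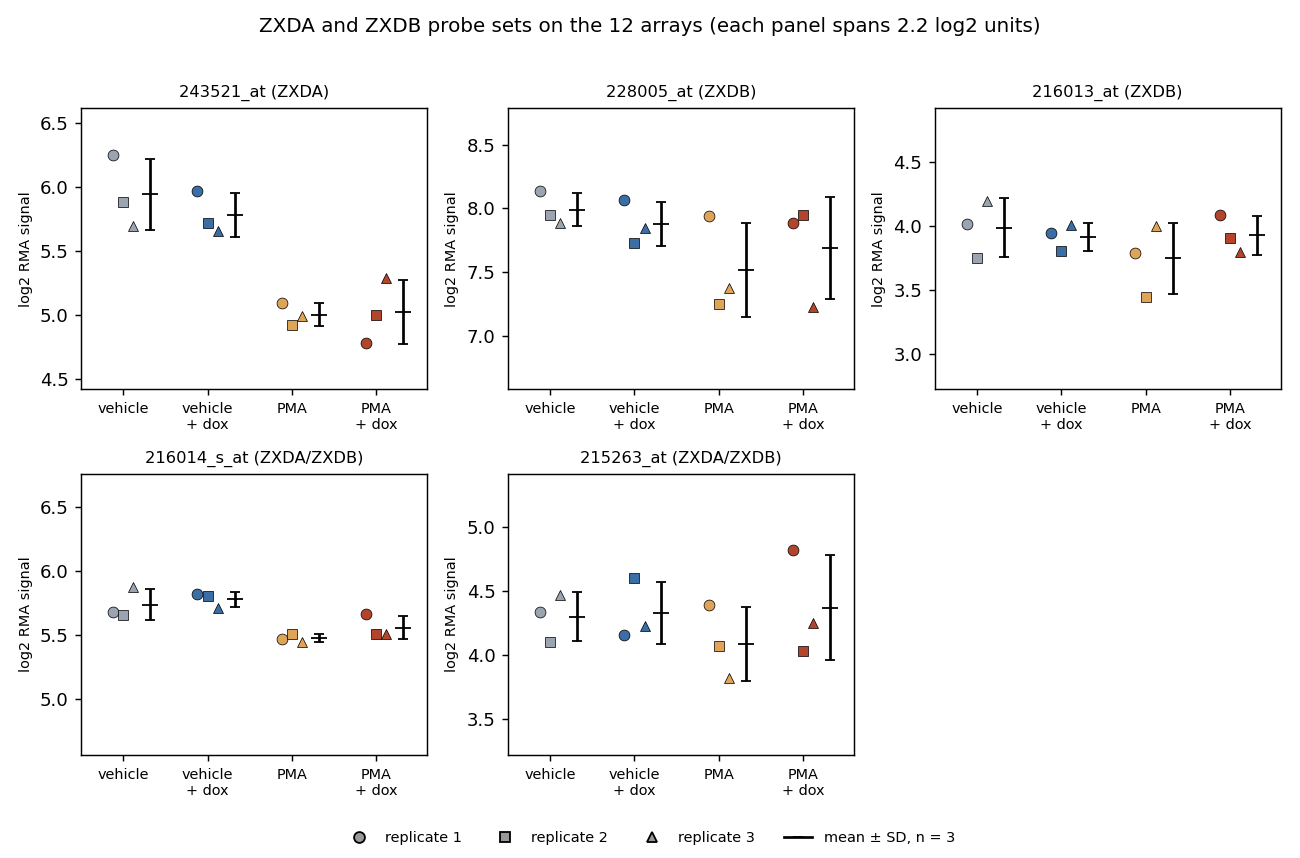
Log2 RMA signal (y axis) of the 5 probe sets for ZXDA, ZXDB or both on each of the 12 arrays, by group (x axis), with symbols for the replicate number and bars for the mean ± SD (n = 3). On 243521_at (ZXDA) the PMA arrays lie between 4.78 and 5.29 and the vehicle arrays between 5.65 and 6.25, while the groups of 228005_at (ZXDB) overlap.

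The ZXDC probe sets did not follow PMA together. 218639_s_at was lower in PMA by 0.53 on average (log2 difference -0.53, SE 0.12, limma adjusted p = 0.00347, exact permutation p = 0.005). By condition its difference was -0.45 (adjusted p = 0.0802) without doxycycline and -0.61 (adjusted p = 0.0186) with it. The latter adjusted p rose to 0.0833, 0.0888 and 0.0749 without PMA with doxycycline 1, vehicle with doxycycline 2 or vehicle with doxycycline 3. With the replicate block the former was called as well (adjusted p = 0.0333).

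Higher signals in PMA were called for 230209_at, by 0.44 (SE 0.16, limma adjusted p = 0.047, exact permutation p = 0.065), and for 235448_at, by 0.21 (SE 0.07, adjusted p = 0.0307, exact p = 0.005). By condition 230209_at differed by 0.26 (adjusted p = 0.487) without doxycycline and by 0.61 (adjusted p = 0.0635) with it, and these did not differ detectably from each other (interaction 0.35, adjusted p = 1). The value with doxycycline was called with the replicate block (0.00684), under cyclic loess (0.0412), among bright probe sets only (0.0471), with 1 probe set per gene (0.0492), with only the groups compared (0.0245) and on the arrays numbered 2 and 3 alone (0.00164). PMA 1 weighed on the average, which was 0.29 without it. Both averaged calls were fragile. The call of 230209_at held when vehicle 1, vehicle with doxycycline 1, PMA 3 or PMA with doxycycline 3 was left out, and was lost without any other array, at adjusted p of up to 0.113. That of 235448_at was lost without vehicle with doxycycline 1, PMA 1, vehicle 2, vehicle with doxycycline 2 or PMA with doxycycline 3, at adjusted p of up to 0.0889. When each array was centred on its median, the 2 adjusted p-values were 0.0612 and 0.0584, and a trended, robust prior gave 0.0563 for 235448_at. On the arrays numbered 2 and 3 alone they were 0.00572 and 0.107. 234991_at was 0.27 higher (adjusted p = 0.082), and it was called with the replicate block (0.0376), under cyclic loess (0.025) and without PMA 3 (0.0189). Without PMA 1 its difference was 0.16 (adjusted p = 0.162), on the arrays numbered 2 and 3 alone it was 0.21 (0.0993), and adjusted p reached 0.174 without vehicle 3. 230106_at differed by 0.04 (adjusted p = 0.886).

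The brightest ZXDC probe set, 225964_at, averaged 7.78 ± 0.20 (SD, n = 3) in vehicle and 7.78 ± 0.24 in PMA. With doxycycline it averaged 7.28 ± 0.14 and 7.28 ± 0.23. Its averaged PMA difference was 0.00 (SE 0.11), with a 95% interval of -0.24 to 0.24. The interval of 218639_s_at, -0.80 to -0.27, lay just outside it, and that of 230209_at, 0.10 to 0.78, overlapped it.

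Whether probe sets of 1 gene changed unequally was tested on their difference within each array. Each probe set was set against the probe set of highest mean for its gene, and 21316 such differences were fitted over the array. The difference 218639_s_at minus 225964_at was lower in PMA by 0.53 (log2 -0.53, SE 0.16, limma adjusted p = 0.0196). It read -0.41, -0.23 and -0.01 in vehicle and -0.48, -0.03 and -0.31 with doxycycline, then -0.95, -0.58 and -0.49 in PMA and -1.34, -0.86 and -0.43 with doxycycline. The PMA arrays were lower as a group, and 1 of them, PMA with doxycycline 3, overlapped the vehicle arrays. The difference 230209_at minus 225964_at was higher in PMA by 0.44 (SE 0.15, adjusted p = 0.0393), with vehicle arrays at -1.14 to -0.37 and PMA arrays at -0.83 to -0.13. So 2 of the 6 such differences for ZXDC and ZXDB were called, beside 28.1% of all. The first call was lost without vehicle 3 (adjusted p = 0.0528) or vehicle with doxycycline 2 (0.0522). The second held without vehicle with doxycycline 1, PMA 2 or PMA 3, and was lost without any other array (adjusted p of up to 0.101) and under cyclic loess (0.0518).

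The other differences did not pass: 234991_at had 0.27 (adjusted p = 0.0992), 235448_at 0.21 (0.233), 230106_at 0.04 (0.895) and, for ZXDB, 216013_at minus 228005_at 0.21 (0.35). For doxycycline 0 of the 6 within-gene differences were called by limma, as were 0% of all. At an unadjusted p under 0.05, 5.85% of all differences passed and none of the 6 did. They ranged from -0.13 for 218639_s_at to 0.24 for 235448_at. 218639_s_at is paired by the array's annotation with a curated ZXDC transcript, and where the probes lie along the ZXDC1 and ZXDC2 forms was not analysed here.

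**Figure D5:**
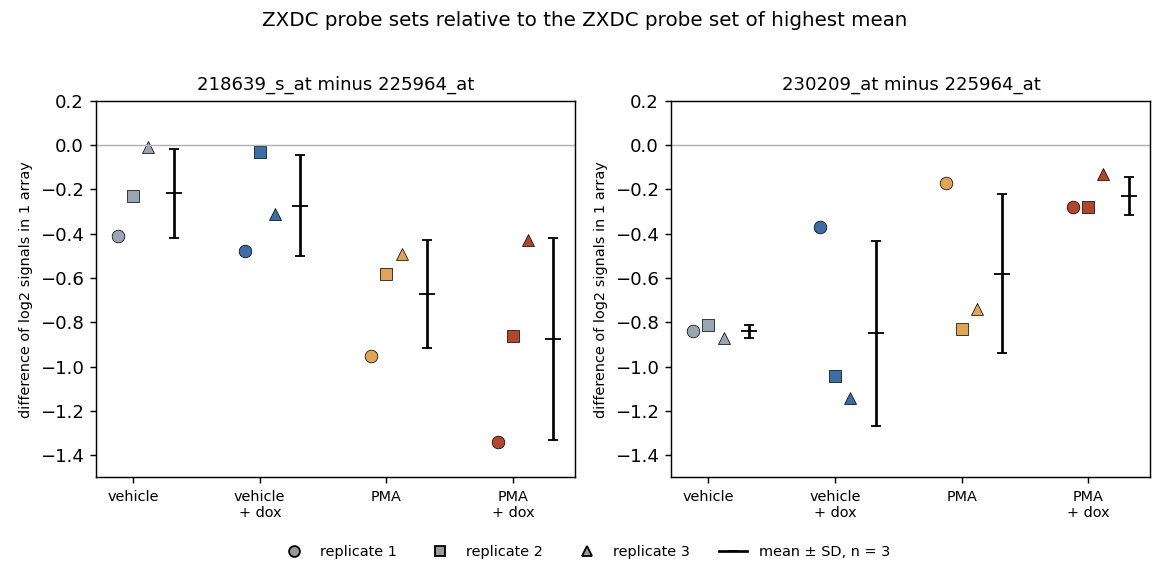
Log2 signal of a ZXDC probe set minus that of 225964_at in the same array (y axis), by group (x axis), for 218639_s_at on the left and 230209_at on the right, with symbols for the replicate number and bars for the mean ± SD (n = 3). The PMA arrays lie at -1.34 to -0.43 against -0.48 to -0.01 in vehicle on the left, and at -0.83 to -0.13 against -1.14 to -0.37 on the right.

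Doxycycline and PMA did not interact detectably on any member. The doxycycline difference in PMA minus that in vehicle ran from -0.16 (218639_s_at) to 0.35 (230209_at). Limma called 0 of 11, as it called 0% of all probe sets. At an unadjusted p under 0.05 it held 0 of 11 members and 2.83% of all. The intervals were wide: -0.49 to 0.47 for 225964_at and -0.69 to 0.37 for 218639_s_at.

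The order of the 4 groups differed by probe set. On 225964_at the PMA and vehicle means (gap 0.01) stood above both doxycycline groups (gap 0.00 between them), with a step of 0.49 against a pooled SD of 0.21. On 218639_s_at vehicle was highest, then PMA, vehicle with doxycycline and PMA with doxycycline, with steps of 0.45, 0.10 and 0.61 against an SD of 0.24, so that PMA and vehicle with doxycycline did not differ beyond their spread. On 235448_at PMA led, vehicle and PMA with doxycycline followed 0.04 apart, and vehicle with doxycycline was 0.25 lower, with an SD of 0.07. 243521_at put both vehicle groups (gap 0.16) above both PMA groups (gap 0.02), with a step of 0.76 against an SD of 0.21. On 228005_at, 216013_at, 215263_at and 230106_at no step between neighbours exceeded the SD.

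Across the arrays of 1 agent the ZXDC probe sets were positively correlated with each other, to very different degrees. The 15 pairs of ZXDC probe sets had a median Pearson r of 0.69 over the 6 vehicle arrays (0.33 to 0.89) and 0.72 over the 6 PMA arrays (0.10 to 0.92). The lowest, 0.10, was that of 218639_s_at with 230209_at. The 10 pairs among ZXDA and ZXDB probe sets had medians of 0.07 and 0.31. The 30 pairs of a ZXDC with another probe set had medians of 0.17 (-0.48 to 0.88) and -0.20 (-0.78 to 0.67), and the highest was 230209_at with 228005_at (ZXDB), at 0.88 in vehicle. High values were therefore not particular to ZXDC pairs. These values describe 6 arrays that include both doxycycline groups and share their extracts and array scaling, and pairs of probe sets are not independent.

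The genes most like each member were taken by the lower of the 2 correlations, over the vehicle and over the PMA arrays, among 41082 single-gene probe sets. For ZXDC (225964_at) these were ATXN3, SLC20A2, PAXIP1-AS2, MROCKI and PCBD2, led by ATXN3, a deubiquitinase gene, at 0.95 and 0.88. For ZXDA (243521_at) they were ST8SIA3, ITCH, MYH10, PLCXD3 and NSL1, led by ST8SIA3, a sialyltransferase gene, at 0.92 and 0.94. By mean signal the probe sets of ST8SIA3, ITCH, MYH10 and PLCXD3 were dim, at percentiles 32.2, 17.4, 28.7 and 6.39, and that of NSL1 lay at 66.7. The part of background signal in these correlations was not tested. For ZXDB (228005_at) they were SENP7, SCAMP1, ZNF567, TAOK1 and USP34, led by SENP7, a SUMO protease gene, at 0.96 and 0.95. A lower correlation above 0.9 was reached by 0 probe sets for ZXDC, 1 for ZXDA and 24 for ZXDB. With 6 arrays and so many candidates, these are descriptions.

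MHC class II regulation is the pathway ZXDC is known for, and a list of 22 of its genes was followed at the probe set of highest mean per gene. Doxycycline called none of them: 0 of 22 in limma's fit averaged over the agents, in vehicle and in PMA, with medians of -0.01, 0.03 and -0.06 beside 0.01, 0.02 and 0.00 over all probe sets. In each of these comparisons 0% of all probe sets were called, so nothing is read about the list from its lack of calls. At an unadjusted p under 0.05 there were 2, 0 and 3 of the 22, beside 5.79%, 2.4% and 5.84% of the 19775 genes at their probe set of highest mean. CIITA, the partner of ZXDC, averaged 5.20 ± 0.15 in vehicle, 5.34 ± 0.09 with doxycycline, 5.36 ± 0.05 in PMA and 5.26 ± 0.16 in PMA with doxycycline (SD, n = 3). Its averaged doxycycline difference was 0.02 (SE 0.08, adjusted p = 0.994) and its averaged PMA difference 0.04 (adjusted p = 0.79). CIITA thus lay near the array medians of 5.16 to 5.22. Several class II genes read below them in vehicle, with means of 4.71 for HLA-DRA, 4 for HLA-DPA1, 4.47 for HLA-DPB1 and 4.45 for HLA-DQA1. Others were bright, such as RFX5 at 10.09. RMA compresses differences of dim probe sets, so a missing call on the dim genes does not show that they were unchanged.

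PMA called 8 of the 22 without and 8 with doxycycline, in each case 2 higher and 6 lower, and 10 (2 higher, 8 lower) on average. Of all genes at their probe set of highest mean, 29.7% were called without doxycycline (11.9% higher, 17.8% lower), 30.8% with it (12.3% and 18.6%) and 39.5% on average (16.5% and 23%), so the list's counts lie near this background. The list's medians were -0.10, -0.15 and -0.10, beside 0.02, 0.00 and 0.02 over all probe sets. The 2 that rose were HLA-DMA, whose product helps load peptide on class II molecules, by 1.28 and 1.44, and HLA-DRB1, a class II chain, by 0.81 and 0.74. The RFX factors that bind class II promoters fell, with log2 differences of -1.06 and -1.42 for RFX5, -1.67 and -1.74 for RFXAP, and -0.57 and -0.58 for RFXANK. NFYB, a subunit of the CCAAT-binding factor, fell too, with -0.81 and -0.99. All these have a limma adjusted p of at most 0.00338. CD74 was called lower too, with -0.50 and -0.56 (limma adjusted p = 0.0257 and 0.0125). HLA-DOB was called lower without doxycycline (-0.55, adjusted p = 0.0255) and KAT2B with it (-0.55, adjusted p = 0.024). HLA-DRA differed by 0.08 and 0.21 and was not called.

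CCL2, a monocyte chemokine gene, averaged 6.78 ± 0.92 in vehicle and 12.71 ± 0.63 in PMA (SD, n = 3), and 11.61 ± 1.19 in PMA with doxycycline. Its doxycycline difference in PMA was -1.10 (SE 0.65, 95% interval -2.49 to 0.29, limma adjusted p = 0.892). It was not called, and 0% of all probe sets were called for this comparison. BCL6, a transcriptional repressor gene, rose with PMA by 2.70 without and 2.50 with doxycycline (adjusted p = 1.06e-05 and 1.87e-05), and its averaged doxycycline difference was 0.11 (adjusted p = 0.975). The reference gene GAPDH differed by -0.01 for doxycycline and -0.01 for PMA on average, and ACTB by -0.07 and -0.40, the latter at an adjusted p of 0.0433.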

How the data were processed

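Per the labels' protocols, 100 ng of total RNA per sample was labelled by in vitro transcription from the 3′ end and hybridised to 1 of 12 arrays. The values are the authors' deposited log2 signals. The submitters' processing notes name RMA, with a version and options not given in the sources used here. RMA compresses differences of dim probe sets, and no further scaling or filter was applied. Probe sets were named through the platform annotation, with symbols updated through Entrez numbers, and 62 controls were left out, which left 54613.

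The 4 group means were estimated in limma 3.58.1 (lmFit, eBayes; R 4.3.3) from the 12 arrays (8 residual and 5.6 prior degrees of freedom), two-sided, with Benjamini-Hochberg adjustment over all probe sets and calls at 0.05. Exact tests permuted doxycycline within agents, or PMA within doxycycline conditions. Promoters came from a RefSeq table and were aligned with Biopython 1.88. The fit was tested on simulated data. The members and lists were chosen with earlier results of these data known. The alternatives run on the differences between genes, on the exact tests of single probe sets and on the class II counts were chosen after seeing the data. Named genes were all member probe sets, CIITA, CCL2 and BCL6, called members of the class II list (up to 4 per direction), the 5 genes most like each member gene, and ACTB and GAPDH as reference. Other members of the class II list are named to show what else that list read. With 3 arrays a group, limma's p-values set a difference against the spread between these samples, moderated over all probe sets. Exact p-values come from relabelings of these same arrays.

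Pairing by replicate number was checked through the correlation of deviations from group means. Between doxycycline conditions, numbers 1, 2 and 3 gave 0.53, 0.22 and 0.31 for vehicle and 0.56, 0.22 and 0.31 for PMA. Each exceeds 0.1, the limit set, and pairing within agents was assumed. Across agents it was 0.19, -0.01 and 0.21 without and 0.24, 0.09 and 0.12 with doxycycline, so not every pair there passed. The replicate block ties the numbers across agents as well, so its PMA results rest on a pairing that did not pass throughout.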

Additional observations from a re-analysis of the deposited data

How the results depend on the processing

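Doxycycline called 0 of 11 ZXD probe sets under all alternatives run: the replicate block, cyclic loess, arrays centred on their medians, bright probe sets only (which drops 216013_at and 215263_at), 1 probe set per gene, a trended and robust prior, arrays numbered 2 and 3 alone, only the groups compared (run for single contrasts) and leaving out each array. The averaged doxycycline difference of the ZXDC probe set 225964_at stayed at -0.57 to -0.43 without any 1 array. It was -0.39 (exact permutation p = 0.0556, its smallest) on arrays numbered 2 and 3. Counts called for PMA moved. Without doxycycline the count went from 1 to 3 with the replicate block, and was 1 to 2 without 1 array. It was 2 when median-centred, bright only, on arrays 2 and 3 or with only the groups compared. With doxycycline it went from 2 to 4 under cyclic loess and bright only, and was 1 to 3 without 1 array. It was 3 with the replicate block, 1 probe set per gene, arrays 2 and 3 or only the groups compared. On average it went from 5 to 7 with the replicate block, and was 3 to 6 without 1 array. It was 6 under cyclic loess, 4 with the trended prior and 3 when median-centred. Of all 54613 probe sets, 18146 were called on average, 20012 with the replicate block, 18031 under cyclic loess, 18019 with the trended prior and 17982 when median-centred. The replicate block changed no doxycycline call. Unequal PMA changes went from 2 to 1 under cyclic loess and 0 to 2 without 1 array. Of 1319 recomputed member differences, 39 reversed, none of them called under either setting, and the cause was not tested. Cyclic loess gave -0.01 for 215263_at (doxycycline in vehicle) and -0.01 for 216013_at (PMA with doxycycline), and -0.06 for 230106_at minus 225964_at; median-centring gave -0.03 for 225964_at (PMA without doxycycline). Arrays 2 and 3 gave, for doxycycline, 0.05 for 243521_at (averaged), 0.11 and 0.03 for 230209_at and 230106_at (in PMA) and -0.02 for 216014_s_at (in vehicle). For PMA they gave -0.05 and -0.28 for 216013_at and 215263_at (with doxycycline), -0.06 for 230106_at (averaged) and -0.02 for its within-gene difference. Leaving out 1 array spanned 0 for doxycycline on average in 216013_at (-0.01 to 0.12), 228005_at (-0.04 to 0.15) and 243521_at (-0.13 to 0.01), in vehicle in 215263_at (-0.11 to 0.12) and 216013_at (-0.19 to 0.04), and in PMA in 230209_at (-0.37 to 0.14) and 243521_at (-0.11 to 0.14). For PMA without doxycycline it did so in 225964_at (-0.08 to 0.14), 230106_at (-0.24 to 0.17) and 230209_at (-0.03 to 0.48), with doxycycline in 215263_at (-0.19 to 0.21), 216013_at (-0.07 to 0.08) and 228005_at (-0.32 to 0.04), and on average in 230106_at (-0.06 to 0.15, and -0.05 to 0.14 within its gene). No depth is defined for arrays; 3 per group limit the precision.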
